A study of Mus musculus with 16 samples.

Results

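The hnRNP and Rbm genes described here are those whose symbols begin with Hnrnp or Rbm in the deposited table of liver gene counts, 61 of its 15119 genes, together with Rbm24, which was added by name from a second deposited table of 35712 genes. Of the 62 members, 20 are hnRNP genes and 42 are Rbm genes. The low-count filter kept 60 of the 61 in the first table. Rbm46, with 1 to 10 counts per library, was not tested, and Rbm24 is described from the second table. Poly(A) RNA was sequenced from whole livers of female mice that were aged to 9 months on chow and then either moved to a high-fat diet (HFD, TD. 88137) or kept on chow for 12 weeks. The 4 groups of 4 libraries were LKO mice on HFD, WT mice on HFD, LKO mice on chow and WT mice on chow, LKO being a knockout of Arglu1 in hepatocytes. Arglu1 encodes a nuclear protein with an arginine-rich and a glutamate-rich part that acts in transcription and in splicing, and the comparisons ask how its loss and the diet bear on the liver transcriptome. The labels give neither the promoter that drives the deletion nor whether each library came from its own mouse, so errors and p-values measure the spread between these libraries.

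Heterogeneous nuclear ribonucleoproteins (hnRNPs) are abundant nuclear proteins that coat nascent transcripts and set which exons are joined, often as repressors that oppose the SR proteins. Rbm genes are a naming class rather than 1 family: most encode proteins with RNA recognition motifs, among them core and accessory spliceosome proteins, adaptors of the complex that methylates adenosines in RNA, cold-inducible proteins and splicing regulators of muscle. Many of these genes control their own transcript by splicing in exons that lead to its decay, so their mRNA level and their splicing are linked. In hepatocytes such proteins act on the transcripts of metabolic genes, and Rbm47 is a cofactor of the editing of the apolipoprotein B mRNA.

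Whole livers hold several cell types, and in bulk RNA fewer cells of a type and less RNA per cell cannot be told apart. Total counts ran from 19142612 to 25120565 per library. Arglu1 had 15.5 ± 1.53 CPM (read counts relative to the library size, scaled by the TMM method) in LKO livers on HFD and 42.2 ± 1.70 in WT livers on HFD, and 14.7 ± 1.56 in LKO and 41.2 ± 2.62 in WT livers on chow (SD, n = 4 each), and every LKO library was below every WT library. The summed CPM of 5 hepatocyte markers (Alb, Apoa1, Ttr, Serpina1b and Cps1) was high in every library, at 79800 to 95500 in LKO and 61600 to 66700 in WT livers on HFD, and at 110000 to 121000 in LKO and 86100 to 115000 in WT livers on chow. Its part in the differences below was not tested. Skeletal muscle transcripts were present in LKO HFD library 2 and WT HFD library 4, where Acta1 (skeletal muscle actin) had 3777 and 323 counts against 0 to 16 in the other libraries. On the second principal component of all genes tested, which held 13.8% of the variance, LKO chow libraries 3 and 4 lay at 38.1 and 34.7, and LKO chow libraries 1 and 2 at -10.7 and -11.1. Counts of calls are given with and without these libraries, and single calls that were lost without them are named below.

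The hnRNP genes were the more highly expressed class per length of transcript. On the scale of CPM per kilobase, using the longest annotated protein-coding transcript of each gene, Hnrnpa2b1, which also carries RNAs along the cytoskeleton, was the highest member in every group, at 233 ± 12.3 in LKO and 184 ± 17.9 in WT livers on HFD, and 200.4 ± 10.8 in LKO and 181 ± 3.22 in WT livers on chow (SD, n = 4 each). In WT livers on chow it was followed by Hnrnpk at 82.1 ± 6.62, Hnrnpf at 78.6 ± 4.18 and Hnrnpab at 62.6 ± 8.68. Hnrnpk and Hnrnpf lay within their SDs of each other, and Hnrnpab lay below both by more than the SDs. The highest Rbm gene was Rbm39 at 45.7 ± 5.32. At the low end stood Rbm8a2 at 0.297 ± 0.104, a near-identical copy of Rbm8a, whose protein is part of the exon junction complex, and Rbm46 at 0.0557 ± 0.0241. Rbm24 came last in WT livers on chow, at 0.00827 ± 0.00958. Summed over the 20 hnRNP genes, the level in CPM was 1995 to 2068 in LKO and 2061 to 2279 in WT livers on HFD, and 1976 to 2054 in LKO and 2184 to 2299 in WT livers on chow. On chow the sums did not overlap between genotypes, and on HFD they overlapped by 1 pair, LKO library 1 and WT library 1. Such sums weigh abundant genes most and do not show a change of the whole class. Hnrnpa3 had a mean of 88.0 CPM in LKO and 175 in WT livers on HFD, and 96.4 and 176 on chow. Hnrnpa2b1 went the other way, with 402 and 318 CPM on HFD and 346 and 313 on chow.

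Promoters are printed for 4 members on which the results below turn. Hnrnpa3 and Rbm5 had the largest falls in LKO livers on both diets. Rbm10 is the X-linked paralogue of Rbm5 and was also called lower on both diets. Rbm24 had more counts in every LKO library than in any WT library. The sequences are from RefSeq on GRCm38.p6 and run 5′ to 3′ on the strand of the gene from 250 bases before to 50 bases after the annotated start. They lie at chr2:75659009-75659308 (plus strand) for Hnrnpa3, chr9:107770953-107771252 (minus strand) for Rbm5, chrX:20617253-20617552 (plus strand) for Rbm10 and chr13:46418050-46418349 (plus strand) for Rbm24. Capitals mark CCAAT (read as ATTGG on the other strand), the core of the site bound by the factor NF-Y, and GGGCGG (read as CCGCCC on the other strand), the core of the GC box bound by Sp1.
Hnrnpa3: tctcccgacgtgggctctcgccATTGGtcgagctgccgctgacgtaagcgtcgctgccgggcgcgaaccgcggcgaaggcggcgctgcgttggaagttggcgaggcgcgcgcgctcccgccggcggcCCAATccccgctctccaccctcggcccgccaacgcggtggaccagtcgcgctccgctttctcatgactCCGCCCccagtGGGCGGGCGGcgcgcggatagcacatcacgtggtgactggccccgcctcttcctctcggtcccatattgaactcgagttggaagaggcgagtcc
Rbm5: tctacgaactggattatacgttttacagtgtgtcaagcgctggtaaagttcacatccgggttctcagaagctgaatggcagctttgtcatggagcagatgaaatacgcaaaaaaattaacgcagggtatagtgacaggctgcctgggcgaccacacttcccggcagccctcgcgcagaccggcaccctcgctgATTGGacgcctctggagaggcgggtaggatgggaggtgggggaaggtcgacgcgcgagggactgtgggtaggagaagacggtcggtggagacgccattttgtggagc
Rbm10: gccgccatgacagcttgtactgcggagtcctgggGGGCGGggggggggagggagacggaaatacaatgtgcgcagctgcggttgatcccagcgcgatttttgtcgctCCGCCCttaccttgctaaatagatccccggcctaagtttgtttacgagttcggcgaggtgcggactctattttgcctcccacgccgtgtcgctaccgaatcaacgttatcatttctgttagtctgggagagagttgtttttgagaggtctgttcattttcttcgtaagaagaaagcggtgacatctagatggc
Rbm24: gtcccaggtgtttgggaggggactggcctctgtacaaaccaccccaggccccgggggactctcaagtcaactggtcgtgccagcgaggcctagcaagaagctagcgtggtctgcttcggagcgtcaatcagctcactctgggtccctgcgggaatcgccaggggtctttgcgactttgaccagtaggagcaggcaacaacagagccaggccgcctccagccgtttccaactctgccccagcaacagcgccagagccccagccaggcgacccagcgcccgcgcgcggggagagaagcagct
The Hnrnpa3 window held 2 CCAAT and 3 GGGCGG matches and 44 CpG dinucleotides, 2 of the GGGCGG matches overlapping each other. Rbm5 had 1 CCAAT match and no GGGCGG, Rbm10 had 2 GGGCGG matches and no CCAAT, and Rbm24 had neither. The Rbm24 window is set on the RefSeq start and ends before position 46418434, where the GENCODE gene begins. It therefore describes the RefSeq start only. RefSeq promoters were matched for 52 members (70 promoters). CCAAT was found on either strand in 35 of the 70, against 38.2% of 21263 promoters of protein-coding genes, and GGGCGG in 54.3% against 46.2%. Of the 12 promoters matched to 10 of the members that fell in LKO livers on both diets, 7 held CCAAT and 7 held GGGCGG (58.3% each). TATAAA was in 14.3% of the members' promoters and 12.6% of all, CCGGAAG (the core of an ETS site) in 14.3% and 11.6%, and the p53 consensus decamer in 1.43% and 7.37%. Of the 12 promoters of members that fell on both diets, 1 held CCGGAAG (8.33%), 0 held TATAAA and 0 held the p53 decamer. The median number of CpG dinucleotides was 23 in members' promoters and 13 in all. Such matches describe the letters of these windows, and no binding was measured.

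On HFD, more hnRNP and Rbm genes were called lower than higher in LKO livers, the largest falls being those of Hnrnpa3 and Rbm5. Of the 60 members tested, 21 (35.0%) passed the threshold (adjusted p below 0.05, edgeR quasi-likelihood test with Benjamini-Hochberg adjustment over all 14434 genes), where 17.9% of all genes did. Of these, 16 were lower in LKO than in WT livers (26.7%, against 7.57% of all genes) and 5 were higher (8.33%, against 10.3%). Among the 20 hnRNP genes 8 fell and 2 rose, and among the 40 Rbm genes 8 fell and 3 rose. The median log2 fold change was -0.13 over the members and -0.006 over all genes. Without LKO HFD library 2 and WT HFD library 4, the 2 with muscle transcripts, 13 members were called (21.7%, against 10.6% of all genes), 10 lower and 3 higher.

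On chow a like number of members was called, again mostly lower in LKO livers. There, 20 of the 60 members (33.3%) were called in LKO against WT livers, where 24.7% of all genes were: 17 were lower (28.3%, against 11.8% of all genes) and 3 were higher (5.0%, against 12.9%). Of the hnRNP genes 9 fell and 0 rose, and of the Rbm genes 8 fell and 3 rose. DESeq2 called 23 members in the same comparison, 20 lower and 3 higher, and of all genes 2062 lower and 1904 higher. The median log2 fold change was -0.15 over the members and 0.023 over all genes. Without LKO chow libraries 1 and 2 the number was 20 (33.3%, against 34.3% of all genes), and without libraries 3 and 4 it was 16 (26.7%, against 16.2%), with 1 higher. Without LKO HFD library 2 and WT HFD library 4, which enter here only through the shared estimate of the spread, it was 14, of which 11 were lower. That was 23.3% of the members, near the 21.2% of all genes. When only the chow libraries were fitted 9 members were called, and the count of all genes in that fit is not given here. With upper-quartile scaling 13 members were called, 10 lower and 3 higher, and of all genes 1401 lower and 2123 higher. In either direction that is no larger a share of the members than of all genes, while the share called lower is larger.

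**Figure D1:**
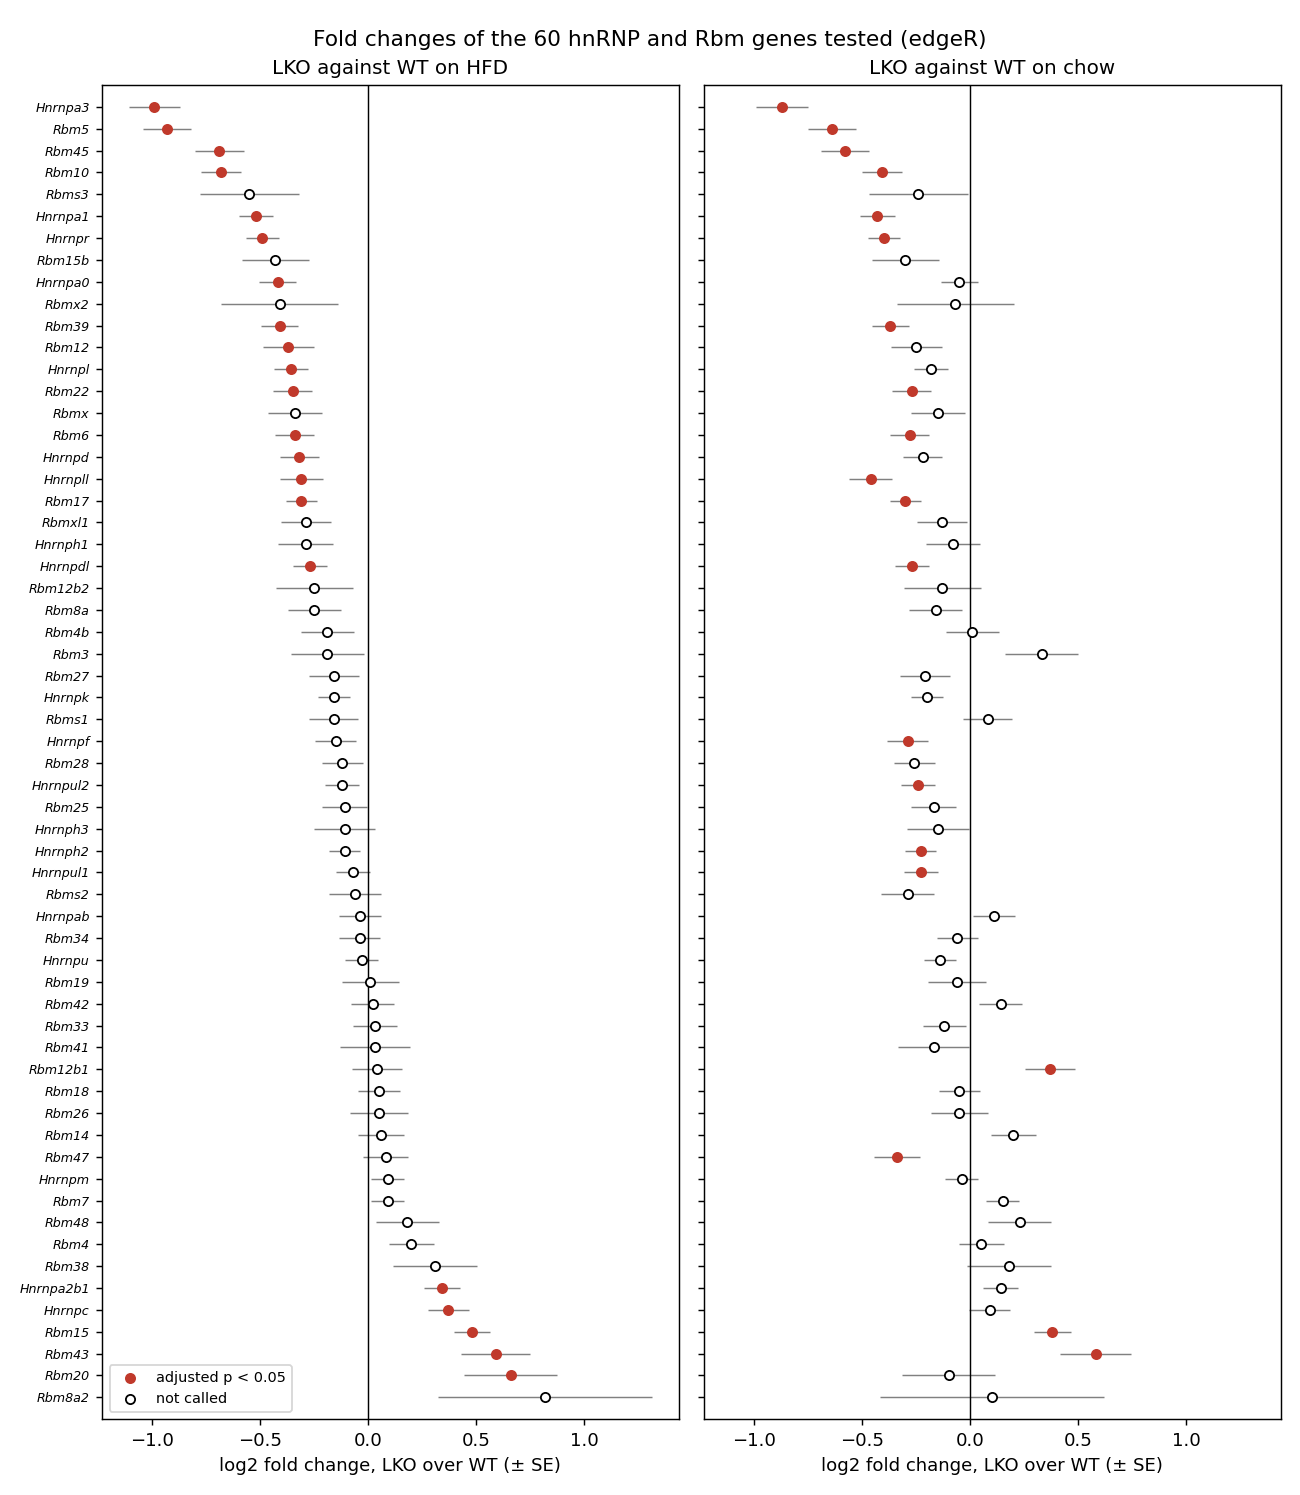
Log2 fold change of LKO over WT with its standard error for each of the 60 hnRNP and Rbm genes tested, on HFD (left) and on chow (right), sorted by the value on HFD. Filled points passed the adjusted p threshold, 21 on HFD and 20 on chow, and most of them lie left of 0.

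Within the A/B type hnRNPs, Hnrnpa3 (ENSMUSG00000059005.13, chr2:75659261-75669407) fell most of all members on both diets. Its protein binds RNA much as that of Hnrnpa1 does. It had 80.3, 80.3, 108 and 82.9 CPM in the LKO libraries on HFD, against 161, 186, 171 and 182 CPM in the WT libraries on HFD. On chow it had 82.2, 98.4, 86.8 and 118 CPM in LKO livers, against 171, 164, 197 and 173 CPM in WT livers. Every LKO library was below every WT library on both diets, and LKO HFD library 3 was the highest of its group. The log2 fold change was -0.99 ± 0.120 on HFD (the error of a log2 fold change is its standard error here and below; adjusted p = 1.72e-05, edgeR) and -0.87 ± 0.120 on chow (adjusted p = 4.99e-05). Relative to WT livers the level fell by 49.7% on HFD and fell by 45.4% on chow. Processed copies of Hnrnpa3 and Hnrnpa1 elsewhere in the genome can take up reads, and how such reads were assigned is not given in the sources used here.

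Hnrnpa1, the classical splicing repressor of the class, had 43.3, 44.9, 45.1 and 43.7 CPM in LKO livers on HFD, against 58.7, 69.4, 62.5 and 62.6 CPM in WT livers on HFD. In LKO livers on chow it had 46.6, 41.2, 47.7 and 52.3 CPM, against 66.7, 63.1, 60.3 and 62.3 CPM in WT livers. The groups did not overlap on either diet, and its log2 fold change was -0.52 ± 0.0808 on HFD (edgeR adjusted p = 0.000212) and -0.43 ± 0.0807 on chow (adjusted p = 0.00093). Hnrnpa0, whose protein binds AU-rich elements, was called on HFD, at 71.8, 71.1, 78.3 and 76.6 CPM in LKO against 98.6, 93.0, 102 and 104 CPM in WT livers, with no overlap (log2 fold change -0.42 ± 0.0854, edgeR adjusted p = 0.00215). On chow its log2 fold change was -0.05 and its libraries overlapped. The difference of the effects between diets was -0.37 ± 0.121 on the log2 scale for Hnrnpa0, with an unadjusted p of 0.00734 that became 0.439 over all genes, so it did not pass.

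Hnrnpa2b1 moved the other way on HFD. It had 434, 397, 389 and 390 CPM in LKO livers on HFD, against 286, 360, 311 and 316 CPM in WT livers on HFD, with no overlap and a log2 fold change of 0.34 ± 0.0826 (edgeR adjusted p = 0.00774). Without the 2 libraries with muscle transcripts its log2 fold change was 0.34 ± 0.106 and its adjusted p 0.0504. On chow the values were 361, 349, 355 and 319 CPM in LKO and 317, 305, 316 and 316 CPM in WT livers. The LKO libraries on chow were all above the WT libraries, by a log2 fold change of 0.14 that did not pass. Hnrnpc, whose protein binds uridine tracts and packages nascent RNA, had 114, 109, 109 and 124 CPM in LKO and 83.1, 88.4, 82.9 and 99.7 CPM in WT livers on HFD with no overlap (log2 fold change 0.37 ± 0.0957, edgeR adjusted p = 0.0118). On chow its libraries overlapped and the log2 fold change was 0.09.

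Of the other hnRNP genes, Hnrnpr, which encodes a relative of Syncrip, fell on both diets. It had 26.4, 25.5, 25.9 and 24.7 CPM in LKO and 36.5, 35.6, 35.6 and 36.1 CPM in WT livers on HFD. The chow values were 28.3, 27.9, 26.3 and 29.3 CPM in LKO and 41.1, 35.4, 37.6 and 33.1 CPM in WT livers. The genotypes were fully apart on both diets, with log2 fold changes of -0.49 ± 0.0750 on HFD (edgeR adjusted p = 0.000175) and -0.40 ± 0.0749 on chow (adjusted p = 0.000929). Hnrnpll, known for the splicing of CD45 in lymphocytes, had a log2 fold change of -0.31 on HFD (adjusted p = 0.0371) and -0.46 on chow (adjusted p = 0.00247). The summed level of 5 T and NK cell markers was 3.13 to 6.62 CPM in LKO and 3.85 to 4.88 CPM in WT livers on HFD, and 4.58 to 5.68 CPM in LKO and 4.25 to 5.58 CPM in WT livers on chow. That of 5 B cell markers was 5.05 to 11.6 CPM in LKO and 8.72 to 18.8 CPM in WT livers on HFD, and 8.41 to 12.7 CPM in LKO and 9.66 to 27.7 CPM in WT livers on chow, and 1 B cell marker of the 5 was called lower in LKO livers on chow and 0 on HFD. Of the T and NK cell markers 1 was called higher in LKO livers on each diet. The part of lymphocytes in the Hnrnpll values was not tested. Hnrnpdl, a relative of Hnrnpd, had -0.27 on both diets (adjusted p = 0.0225 on HFD and 0.018 on chow). Its chow value was -0.16 without LKO chow libraries 1 and 2 (adjusted p = 0.126). Hnrnpl, the CA-repeat binder, fell on HFD (log2 fold change -0.36 ± 0.0786, adjusted p = 0.00358), as did Hnrnpd (AUF1), a decay factor of AU-rich mRNAs, at -0.32 (adjusted p = 0.0197). Called on chow only were Hnrnpf and Hnrnph2, which bind G-tracts, at -0.29 and -0.23, and Hnrnpul1 and Hnrnpul2, relatives of Hnrnpu, at -0.23 and -0.24. Their log2 fold changes on HFD were -0.15, -0.11, -0.07 and -0.12, and no difference of effect between the diets was called for them. All 4 chow calls were lost without LKO chow libraries 3 and 4, where the values were -0.12 for Hnrnpf, -0.16 for Hnrnph2, -0.15 for Hnrnpul1 and -0.14 for Hnrnpul2 (adjusted p = 0.373, 0.206, 0.256 and 0.28). The most highly expressed hnRNP gene not called on either diet was Hnrnpk, with a log2 fold change of -0.16 on HFD and -0.20 on chow.

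**Figure D2:**
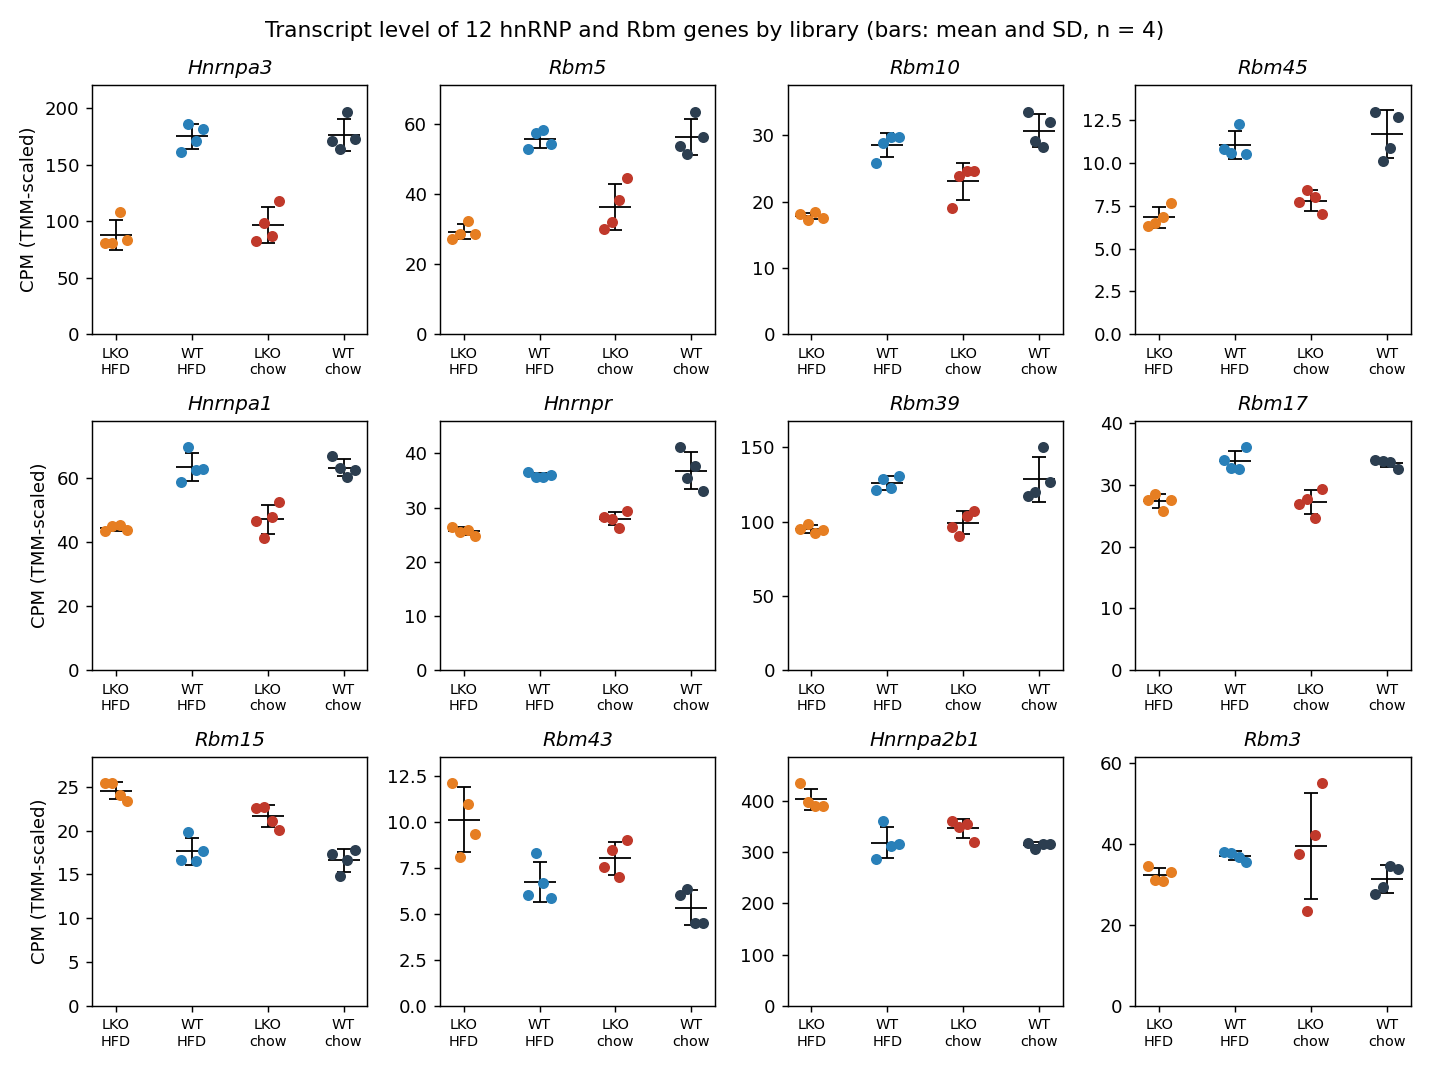
Level in CPM of 12 hnRNP and Rbm genes in each of the 16 libraries (points), with the mean and SD of each group of 4 (bars), LKO beside WT on HFD and then on chow. In Hnrnpa3, Rbm5, Rbm10, Rbm45, Hnrnpa1, Hnrnpr, Rbm39 and Rbm17 every LKO point lies below every WT point of the same diet, and in Rbm15 every LKO point lies above.

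Among the Rbm genes, Rbm17, Rbm22, Rbm39 and Rbm45, described below, were called lower on both diets. So were Rbm5, Rbm6 and Rbm10. Their proteins are related regulators of splice site choice, Rbm5 and Rbm10 being known for the splicing of apoptosis genes, and Rbm6 (chr9:107773559-107873237) is the neighbour of Rbm5 (ENSMUSG00000032580.12, chr9:107740371-107770996) on the same strand. Rbm5 had 27.2, 28.6, 32.2 and 28.6 CPM in LKO livers on HFD, against 52.8, 57.5, 58.2 and 54.2 CPM in WT livers on HFD. Its chow values were 30.0, 31.9, 38.4 and 44.5 CPM in LKO livers, against 53.7, 51.5, 63.5 and 56.3 CPM in WT livers. The groups were apart on both diets, and the LKO chow libraries spread more widely than those on HFD. The log2 fold change was -0.93 ± 0.111 on HFD (edgeR adjusted p = 1.43e-05) and -0.64 ± 0.110 on chow (adjusted p = 0.000441). Relative to WT it fell by 47.6% on HFD and fell by 35.7% on chow. On chow it was -0.44 without LKO libraries 1 and 2 (adjusted p = 0.00342) and -0.86 without LKO libraries 3 and 4 (adjusted p = 2.64e-05).

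Rbm10 (ENSMUSG00000031060.16, chrX:20617503-20650901) had 18.1, 17.3, 18.4 and 17.5 CPM in LKO livers on HFD, against 25.9, 28.9, 29.8 and 29.7 CPM in WT livers on HFD. The chow libraries had 19, 23.9, 24.6 and 24.7 CPM in LKO livers, against 33.6, 29.2, 28.2 and 32.0 CPM in WT livers. No LKO library reached a WT library of the same diet. Its log2 fold change was -0.68 ± 0.0929 on HFD (edgeR adjusted p = 5.68e-05) and -0.41 ± 0.0922 on chow (adjusted p = 0.00322). The exons of Rbm10 overlap those of Ndufb11 on the other strand by up to 117 bases, and Ndufb11 had log2 fold changes of -0.06 and 0.01. Rbm6 fell less, by 0.34 on the log2 scale on HFD (adjusted p = 0.013) and by 0.28 on chow (adjusted p = 0.0292). On HFD it was -0.36 ± 0.113 without the libraries with muscle transcripts (adjusted p = 0.0574), and on chow -0.20 without LKO chow libraries 1 and 2 (adjusted p = 0.153), so neither call held there.

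Rbm39, Rbm17 and Rbm22 were called lower on both diets. Rbm39 (CAPER alpha), a U2AF-like splicing factor and coactivator of nuclear receptors, had 95, 98.7, 92.3 and 94.4 CPM in LKO and 121, 129, 123 and 131 CPM in WT livers on HFD (log2 fold change -0.41 ± 0.0863, edgeR adjusted p = 0.00286). Its chow levels were 96.5, 90.0, 104 and 107 CPM in LKO and 117, 120, 150 and 127 CPM in WT livers (log2 fold change -0.37 ± 0.0863, adjusted p = 0.00467), so the genotypes were apart on both diets. Rbm17 (SPF45), which acts at the 3′ splice site, had 27.5, 28.6, 25.8 and 27.6 CPM in LKO and 34, 32.8, 32.6 and 36.1 CPM in WT livers on HFD, with a log2 fold change of -0.31 ± 0.0725 (adjusted p = 0.00621). Its value on chow was -0.30 ± 0.0726 (adjusted p = 0.00535), again without overlap. In the fit of the chow libraries alone the adjusted p was 0.0533 for Rbm39 and 0.0541 for Rbm17. Rbm22, part of the catalytic core of the spliceosome, fell by 0.35 on HFD and by 0.27 on chow (adjusted p = 0.0121 and 0.0396), and both calls were lost when libraries that stood apart were left out. On HFD it was -0.29 ± 0.108 without the libraries with muscle transcripts (adjusted p = 0.114), and on chow -0.15 without LKO chow libraries 1 and 2 (adjusted p = 0.24). The log2 fold changes of Rbm25, a U1-linked splicing factor, were -0.11 on HFD and -0.17 on chow, and those of Rbm8a were -0.25 and -0.16, none of which passed.

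Rbm45 had 6.29, 6.49, 6.87 and 7.67 CPM in LKO livers on HFD, against 10.8, 10.6, 12.3 and 10.5 CPM in WT livers on HFD. The levels on chow were 7.71, 8.44, 8.02 and 7.04 CPM in LKO livers, against 13, 10.1, 10.9 and 12.7 CPM in WT livers. It was the third largest fall on each diet, with the genotypes fully apart and log2 fold changes of -0.69 ± 0.114 on HFD (edgeR adjusted p = 0.000327) and -0.58 ± 0.113 on chow (adjusted p = 0.0012). Rbm12 was called on HFD, at a log2 fold change of -0.37 with overlapping libraries (adjusted p = 0.0387). Its exons overlap those of Cpne1 and Gm28036 on the same strand, so reads may be shared with these genes.

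Rbm47, the editing cofactor, was called on chow, where it had 74.1, 59.2, 77.1 and 66.3 CPM in LKO and 86.0, 76.0, 89.5 and 97.8 CPM in WT livers (log2 fold change -0.34 ± 0.107, edgeR adjusted p = 0.028). LKO library 3 on chow lay above WT library 2. Without LKO chow libraries 1 and 2 the value was -0.29 (adjusted p = 0.0772). On HFD it had 98.2, 93.1, 83.1 and 80.4 CPM in LKO and 78.0, 91.8, 75.8 and 89.9 CPM in WT livers, which overlapped, with a log2 fold change of 0.08. The difference of the effects between diets was 0.42 ± 0.150 on the log2 scale, with an adjusted p of 0.478.

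A few Rbm genes rose. Rbm15, an adaptor of the RNA adenosine methyltransferase complex, had 25.4, 25.4, 24.1 and 23.4 CPM in LKO livers on HFD, against 16.6, 19.8, 16.5 and 17.7 CPM in WT livers on HFD. Its levels on chow were 22.6, 22.7, 21.1 and 20.1 CPM in LKO livers, against 17.3, 14.8, 16.6 and 17.8 CPM in WT livers. Each LKO library was above each WT library of its diet, with log2 fold changes of 0.48 ± 0.0852 on HFD (edgeR adjusted p = 0.000694) and 0.38 ± 0.0857 on chow (adjusted p = 0.00357). Its paralogue Rbm15b, with log2 fold changes of -0.43 on HFD (adjusted p = 0.0629) and -0.30 on chow, did not pass. Rbm43 had 12.1, 8.08, 11 and 9.32 CPM in LKO and 6.05, 8.31, 6.70 and 5.87 CPM in WT livers on HFD, where 1 pair of libraries overlapped (log2 fold change 0.59 ± 0.161, adjusted p = 0.0161). On chow, where it did not overlap, it had a log2 fold change of 0.58 ± 0.164 (adjusted p = 0.0151), and the same value at an adjusted p of 0.0547 without LKO chow libraries 3 and 4. Rbm12b1, at 0.37 on chow (adjusted p = 0.0265) and 0.04 on HFD, has a near-identical neighbour in Rbm12b2, with -0.13 on chow and -0.25 on HFD, and reads of the pair may have been split between them. Without LKO chow libraries 3 and 4 the Rbm12b1 value was 0.31 (adjusted p = 0.15).

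Rbm20, known as the regulator of titin splicing in the heart, was called higher on HFD, at 5.16, 4.58, 3.75 and 6.80 CPM in LKO against 3.84, 2.75, 3.35 and 2.85 CPM in WT livers (log2 fold change 0.66 ± 0.216, edgeR adjusted p = 0.0398). LKO library 3 lay below WT library 1. Without the libraries with muscle transcripts the log2 fold change was 0.66 and the adjusted p 0.132, and on chow the log2 fold change was -0.10. Rbm38, known as a target of p53, had log2 fold changes of 0.31 on HFD and 0.18 on chow, neither of which passed.

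**Figure D3:**
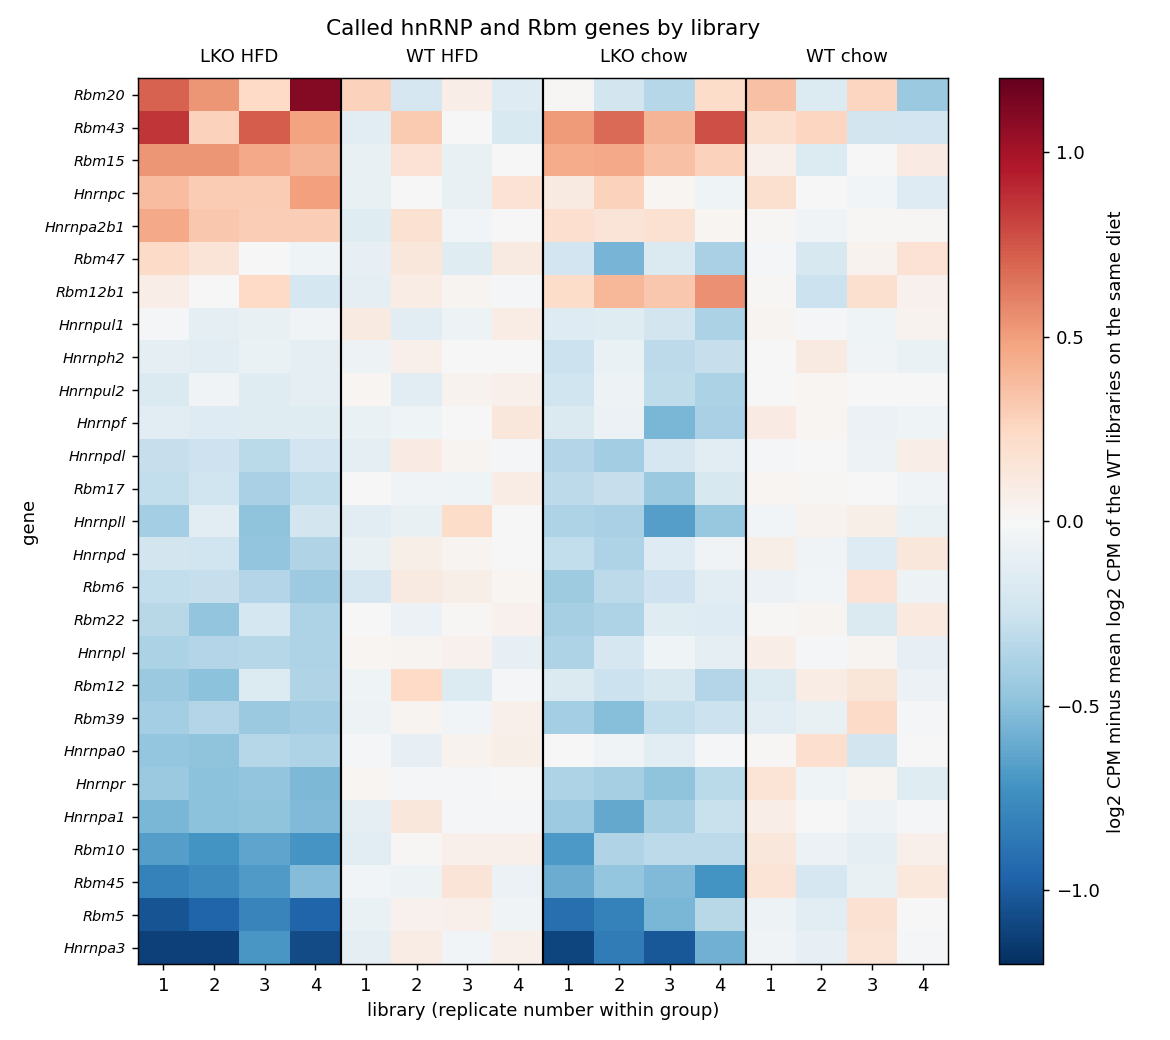
Log2 CPM of the 27 hnRNP and Rbm genes called in LKO against WT on at least 1 diet, in each of the 16 libraries, minus the mean log2 CPM of the WT libraries on the same diet. Blue is lower and red is higher than WT, and the lowest rows, Hnrnpa3, Rbm5 and Rbm45, are blue in all 8 LKO libraries.

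The members that fell were largely shared by the diets, whose comparisons have no library in common. Of the 16 called lower on HFD and the 17 called lower on chow, 12 were on both lists (75.0% of the HFD list and 70.6% of the chow list), where 64.9% and 41.8% of all genes called lower were shared. They were Hnrnpa1, Hnrnpa3, Hnrnpdl, Hnrnpll, Hnrnpr, Rbm5, Rbm6, Rbm10, Rbm17, Rbm22, Rbm39 and Rbm45. Rbm15 and Rbm43 were higher on both diets. Across the 60 members the log2 fold changes on the diets had a Pearson r of 0.75 and the same sign in 48, against r = 0.77 and 10304 of 14434 for all genes, which is a description across genes from the same fit. Libraries of LKO and WT did not overlap, with LKO lower, for 23 members on HFD (38.3%, against 12.7% of all genes) and for 17 on chow (28.3%, against 9.98%). With LKO higher, they did not overlap for 3 members on HFD (5.0%, against 15.1%) and for 4 on chow (6.67%, against 11.4%).

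Some of these calls did not hold when a single library was left out. On chow 10 of the 20 calls were lost when 1 of the libraries was left out, those of Hnrnpdl, Hnrnpf, Hnrnph2, Hnrnpul1, Hnrnpul2, Rbm6, Rbm12b1, Rbm22, Rbm43 and Rbm47, with an adjusted p of 0.0503 to 0.135 when lost (edgeR). Leaving out any of the 8 chow libraries lost between 3 and 7 of them. The chow calls of Hnrnpul1 and Rbm22 were also lost without some single HFD libraries, which are outside that comparison. On HFD 6 of the 21 were lost in this way, those of Hnrnpd, Hnrnpdl, Hnrnpll, Rbm12, Rbm20 and Rbm43, at an adjusted p of 0.0507 to 0.158, and each of the 8 HFD libraries left out lost 2 to 5 calls. Without LKO HFD library 2 and WT HFD library 4 together, the HFD calls of Hnrnpd (log2 fold change -0.35), Hnrnpdl (-0.28), Hnrnpll (-0.37) and Rbm12 (-0.33) were lost besides those named above (adjusted p = 0.0587, 0.0882, 0.0533 and 0.176). In that fit, whose chow libraries were the same, the chow calls of Hnrnpf, Hnrnph2, Hnrnpul1, Hnrnpul2, Rbm22 and Rbm6 were lost too, at an adjusted p of 0.0504 to 0.0688. Without WT HFD library 4 or without LKO HFD library 1 the calls of higher members on HFD numbered 3 rather than 5. The calls of Hnrnpa1, Hnrnpa3, Hnrnpr, Rbm5, Rbm10, Rbm45 and Rbm15 held on both diets in all 26 alternative settings run.

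Between the diets, the share of members called was near or below that of all genes. In WT livers 0 of the 60 were called on HFD against chow by edgeR (2.04% of all genes were). An unadjusted p below 0.05 was found for 3 (5.0%, against 15.4% of all genes). DESeq2 called 0 members, and of all genes 312 higher and 390 lower. In LKO livers 1 member was called (2.22% of all genes were): Rbm10, at the LKO values given above, fell on HFD by 0.37 ± 0.0930 on the log2 scale (adjusted p = 0.0441, edgeR), and no library overlapped. This call was lost when any of LKO chow library 2, 3 or 4, WT chow library 4, WT HFD library 2, 3 or 4, or any LKO HFD library was left out, and it was not made in the fit of the LKO libraries alone. In that comparison 13 members had an unadjusted p below 0.05 (21.7%, against 17.6% of all genes). DESeq2 called 3 members there, and of all genes 413 higher and 337 lower. The effect of genotype was not found to differ between diets for any member. By edgeR 0 of 60 were called for the interaction (0.0208% of all genes were), and 4 had an unadjusted p below 0.05 (6.67%, against 8.75% of all genes). DESeq2 called 0 members for it, and of all genes 28 higher and 19 lower.

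The LKO chow libraries that stood apart bear on the diet comparison. Without LKO chow libraries 1 and 2, 10 members were called on HFD against chow in LKO livers (16.7%, against 18.9% of all genes), and without libraries 3 and 4 there were 0 (against 1.22% of all genes). The 10 were led by Rbm3, a cold-inducible protein (log2 fold change -0.58 ± 0.110, edgeR adjusted p = 0.00255), Rbm10 (-0.47), Rbms2 (0.61), Rbm5 (-0.50) and Rbm4b (-0.58). Rbm3 and Rbm5 also passed for the interaction then, at -0.82 (adjusted p = 0.00445) and -0.49 (adjusted p = 0.0302), 3.33% of the members against 8.61% of all genes. These shares of members are near or below those of all genes. The libraries left out were chosen by their place on the second principal component of these same data. Libraries 3 and 4, the only LKO chow libraries kept, held the highest Rbm3 and Rbm5 levels of that group. The calls made without libraries 1 and 2 are therefore no evidence of a diet effect. With all 16 libraries the interaction had an adjusted p of 0.561 for Rbm3 and 0.601 for Rbm5 (edgeR). In LKO livers Rbm3 had 34.5, 31.1, 30.9 and 32.9 CPM on HFD, against 37.4, 23.3, 42.2 and 54.9 CPM on chow, so the chow group held both the lowest and the highest library. In WT livers it had 37.9, 37.8, 36.8 and 35.5 CPM on HFD, against 27.5, 29.3, 34.5 and 33.8 CPM on chow. Cirbp, the other cold-inducible RNA-binding protein, had 18.8 ± 3.40 CPM in LKO livers on HFD and 22.1 ± 6.61 CPM in LKO livers on chow (SD, n = 4 each). In the fit of all 16 libraries neither gene was called between the diets in LKO livers. The log2 fold change there was -0.23 for Cirbp (edgeR adjusted p = 0.531) and -0.28 for Rbm3 (adjusted p = 0.404). The labels give no batch or collection time for these libraries, and whether either moves with Rbm3 was not tested.

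Rbm24 stood apart from the other members. It encodes a splicing regulator of heart and skeletal muscle, lies at chr13:46418434-46431095 (ENSMUSG00000038132.6), and was nearly silent in WT livers. It was added to the set by name with this difference known. In the second table it had 35, 87, 117 and 72 counts in LKO livers on HFD, against 0, 2, 0 and 3 counts in WT livers on HFD. On chow it had 15, 78, 48 and 82 counts in LKO livers, against 0, 0, 1 and 1 counts in WT livers. The lowest LKO library, with 15 counts, was above the highest WT library, with 3. On the CPM scale this was 3.26 ± 1.25 in LKO and 0.0585 ± 0.0692 in WT livers on HFD, and 2.54 ± 1.53 in LKO and 0.0255 ± 0.0296 in WT livers on chow (SD, n = 4 each).

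The ratio of depth-scaled Rbm24 counts between LKO and WT livers was 58.7 on HFD (311 against 5 counts, 95% exact interval 24.9 to 182). On chow the ratio was 103 (223 against 2 counts, 28.1 to 853). These intervals cover counting error only, not the spread between libraries or the choice of the gene, so they are not a test. Rbm24 passed the filter on low counts only through its LKO libraries and was added with its difference known, so no test of it is given. On HFD, LKO library 2 had 3777 counts of Acta1 and 87 of Rbm24, LKO library 3 had 0 of Acta1 and 117 of Rbm24, and WT library 4 had 323 of Acta1 and 3 of Rbm24. Without LKO HFD library 2 and WT HFD library 4 the ratio on HFD was 108 (224 against 2 counts, 29.6 to 900.0).

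**Figure D4:**
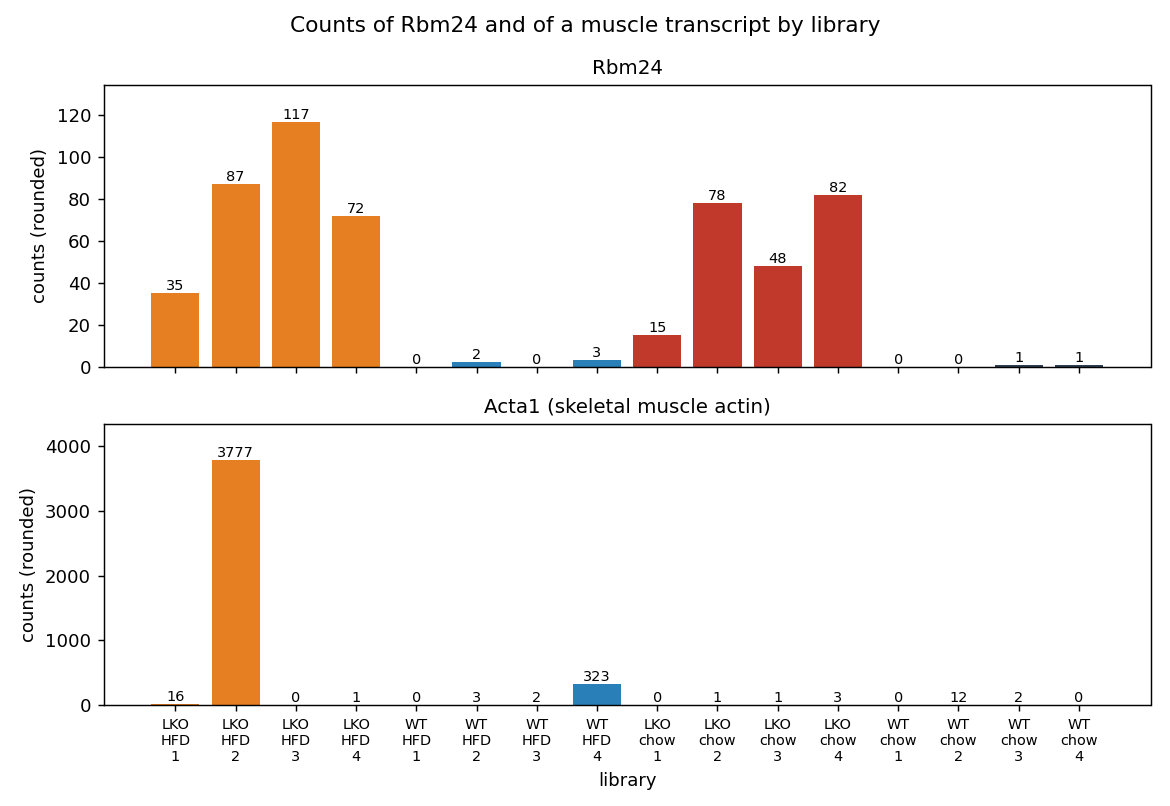
Rounded counts of Rbm24 (top) and of the muscle transcript Acta1 (bottom) in each of the 16 libraries, LKO beside WT on HFD and then on chow. Rbm24 runs from 15 to 117 counts in LKO libraries and from 0 to 3 in WT libraries, while Acta1 is high in LKO HFD library 2 and WT HFD library 4.

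Other RNA-binding proteins of the same pathways were, like the members, called lower more often than higher in LKO livers. A list of 51 genes with hnRNP proteins under other names and further regulators of splicing and RNA stability had 47 members tested. On HFD 11 of them fell (23.4%, against 7.57% of all genes) and 3 rose (6.38%, against 10.3%) in LKO against WT livers (list median -0.105 on the log2 scale), and on chow 9 fell (19.1%, against 11.8%) and 3 rose (6.38%, against 12.9%) (list median -0.001) (the medians of all genes are given above). Syncrip (hnRNP Q) had 35.7 ± 0.787 CPM in LKO and 52.0 ± 2.44 CPM in WT livers on HFD, a log2 fold change of -0.54 (edgeR adjusted p = 0.000272), and -0.48 on chow (adjusted p = 0.000684). U2af1, the small U2AF subunit that reads the 3′ splice site, had -0.57 on HFD and -0.34 on chow (adjusted p = 0.000302 and 0.0117), and Ewsr1, of the FET family, had -0.61 and -0.38 (adjusted p = 0.000393 and 0.00988). Tial1 fell by 0.45 on HFD and by 0.42 on chow (adjusted p = 0.00106 and 0.00161), and the cold-shock domain protein Ybx1 by 0.40 and 0.47 (adjusted p = 0.00258 and 0.000564). Myef2 rose, by 0.48 on HFD and 0.63 on chow (adjusted p = 0.0121 and 0.0015). Ptbp1, the polypyrimidine tract binder also called hnRNP I, had 0.16 on HFD and 0.04 on chow, neither of which passed. Between the diets in LKO livers U2af1 alone of the list was called by edgeR, at 24.9 ± 0.585 CPM on HFD and 35.3 ± 3.70 CPM on chow (SD, n = 4 each). This was a fall by 0.50 on the log2 scale (adjusted p = 0.00776).

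The values are sums over all transcripts of a gene, so forms of these genes that retain introns or hold decay-inducing exons are not told apart from the coding forms. The deposited tables do not state whether reads were counted by strand. Members whose exons overlap another gene, such as Rbm10, Rbm12, Rbm15b, Rbm48 and Hnrnpk, and near-identical pairs, such as Rbmx with Rbmxl1, Rbm4 with Rbm4b and Rbm8a with Rbm8a2, are therefore less certain than the rest.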

How the data were processed

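Poly(A) RNA from 16 liver libraries was sequenced as paired-end reads, per the labels' protocols. The deposited gene values are the authors' estimated counts, not normalised, and 53.7% of the values were whole (tolerance 1e-06). Per the submitters' processing notes, mm10, Bowtie2 and DESeq2 were used. Versions and the counting tool are not given in the sources used here. The second deposited table is named as RPKM but held the same counts, with each value of its 8 chow columns 1 row below its gene. These were moved up by 1 row, after which 1 value differed between the tables and none of a member. Total counts per library were 19158827 to 24667513 for LKO on HFD, 20219283 to 24123730 for WT on HFD, 19142612 to 25120565 for LKO on chow and 19689661 to 23774780 for WT on chow.

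Counts were rounded and fitted with edgeR 4.0.16 (R 4.3.3, limma 3.58.1): TMM scaling, filterByExpr, robust quasi-likelihood fits with 1 mean per group over all 16 libraries, and Benjamini-Hochberg adjustment over all genes tested (14434, and 14762 in the second table). The fit of the second table was meant for Rbm24, whose test is not reported because it passed the filter only through LKO libraries and was added with its difference known. All tests were 2-sided. The threshold was an adjusted p of 0.05. The standard error is the size of the log2 fold change divided by the square root of F. Depth limits genes of a few counts per library, such as Rbm46, Rbm8a2 and, in WT livers, Rbm24. The script was tested on simulated data.

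The members, the lists and the tests were chosen with earlier results of these data known. Named were Arglu1, Rbm24, the members called in a comparison (full statistics by lowest p), the highest members not called, and up to 6 called genes of the related list for each comparison. Rbm38, Rbm15b, Cirbp, Rbm12b2 and Ptbp1 were named after their values were seen. Alternatives were DESeq2 1.42.0, its size factors, upper-quartile scaling, no filter, only the groups compared, a replicate block, the second table, leaving out each library, and leaving out LKO libraries 1 and 2, or 3 and 4, of the chow group. Leaving out LKO HFD library 2 with WT HFD library 4 was added after seeing the data. Gene positions are from GENCODE (GRCm38). No set test was run.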

Additional observations from a re-analysis of the deposited data

Results flagged for a closer look

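In 116 sets of 4 libraries (29 genes in 4 groups), 6 held a library whose gap to the next exceeded Dixon's 95% critical value. Chance flags about 1 in 20 such sets. Hnrnpa3 was highest in LKO HFD library 3, at 108 CPM against 80.3 to 82.9 CPM in the other LKO libraries on HFD. Rbm10 was lowest in LKO chow library 1, at 19 CPM against 23.9 to 24.7 CPM in the others of that group. Hnrnpl was lowest in WT HFD library 4, one of those with muscle transcripts, at 96.4 CPM. Hnrnpa2b1 was lowest in WT chow library 2, at 305 CPM, and Arglu1 was highest there, at 45.1 CPM. Rbm6 was highest in WT chow library 3, at 33.2 CPM. The part of muscle transcripts in the Hnrnpl value was not tested, and no gene named here changed direction when its library was left out.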

How the results depend on the processing

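No call of a member or of Arglu1 changed direction in any of the 26 alternatives. The number of members called in LKO against WT livers on HFD (21, of which 5 higher and 16 lower) was 13, 3 and 10 without LKO HFD library 2 and WT HFD library 4. Leaving out single libraries gave 16 to 23, with 3 to 5 higher and 13 to 18 lower. On chow (20, of which 3 higher and 17 lower) upper-quartile scaling gave 13 with 10 lower, fitting only the groups compared gave 9 with 7 lower, 1 was higher without LKO chow libraries 3 and 4, and 11 were lower without LKO HFD library 2 and WT HFD library 4. In the last of these fits 14 members were called on chow in either direction (23.3%, against 21.2% of all genes). Leaving out single libraries gave 14 to 21, with 2 to 4 higher and 12 to 17 lower. For HFD against chow in LKO livers (1) DESeq2 gave 3, only the groups compared 0, the replicate block 0, the sets without LKO chow libraries 1 and 2 or 3 and 4 gave 10 and 0, the set without LKO HFD library 2 and WT HFD library 4 gave 0, and single libraries left out gave 0 to 2. The interaction (0) gave 2 without LKO chow libraries 1 and 2 and 0 with each single library left out, and WT livers gave 0 throughout those. The related list (14 on HFD, 12 on chow) gave 7 on HFD without LKO HFD library 2 and WT HFD library 4, 7 on chow with only the groups compared, and 9 to 15 on either diet with single libraries left out. Fits that leave out libraries have fewer samples, and the cause of the other changes was not tested. The median of all genes on chow was 0.069 with upper-quartile scaling and 0.023 otherwise by TMM, and that of the members -0.10 and -0.15. The counts of all genes called on chow with upper-quartile scaling and with DESeq2 are given above.

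The labels do not say that the replicate numbers pair the libraries. Of 24 correlations of same-numbered libraries 5 exceeded 0.1 (median -0.018, range -0.278 to 0.318). With 4 libraries a group this cannot exclude a pairing. With the replicate block 19 members were called on HFD and 17 on chow.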

Other observations

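Of 73 symbols in the second table that begin with Hnrnp or Rbm, 12 are not in the first, and 6 of these had 0 counts in all 16 libraries. Besides Rbm24, the highest of them was Rbmxl2, a retrogene copy of Rbmx known from the testis, with 6, 2, 6 and 1 counts in LKO livers on HFD, against 13, 13, 15 and 10 in WT livers on HFD. On chow it had 1, 0, 15 and 9 counts in LKO livers, against 6, 9, 18 and 8 in WT livers. No test of Rbmxl2 is given, because it passed the low-count filter only with its WT HFD libraries, where its counts are higher. Rbm11 had 0, 2, 8 and 1 counts in LKO livers on HFD, against 0, 1, 0 and 4 in WT livers on HFD, and 2, 1, 4 and 0 in LKO livers on chow, against 0 in each WT library on chow. These counts are too few to show a difference at this depth.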
